A study of Mus musculus with 4 samples.

Results

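The genes described here encode the factors that hold RNA polymerase II just downstream of a promoter and those that release it. They are 10 genes of the 53715 rows of the gene table, found by their symbols in the GENCODE annotation of the mouse. Of these, 4 encode subunits of the negative elongation factor NELF (Nelfa, Nelfb, Nelfcd and Nelfe) and 2 encode subunits of the DRB sensitivity-inducing factor DSIF (Supt4a and Supt5). The kinase Cdk9 and its cyclins Ccnt1 and Ccnt2 form the positive elongation factor P-TEFb, and Hexim1 encodes its inhibitor. All 10 passed the filter on low counts.

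Polyadenylated RNA had been sequenced from pre-amplified cDNA of whole mouse embryos of the C57BL/DBA2 strain at the 2-cell stage. The 2 control libraries came from zygotes injected with the control small interfering RNA siNC, and the 2 knockdown libraries from zygotes injected with an siRNA against SPENH0335, which the series' title places among RNAs made from enhancers. Both siRNAs were used at 20 μM, and the zygotes of both groups were taken from the oviduct and cultured in KSOM, an embryo culture medium. The sources used here give neither the number of embryos per library nor whether libraries came from separate collections of zygotes. The p-values therefore cover only the spread of these 4 libraries, and that spread may be technical.

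After initiation, RNA polymerase II often stops a short way into a gene, where DSIF and NELF bind it and keep it from moving on. P-TEFb releases it by phosphorylating NELF, DSIF and the polymerase's tail. Much of P-TEFb is itself held inactive by HEXIM proteins bound to the 7SK small nuclear RNA, and enhancer RNAs have been reported to act on NELF. The 2-cell stage is when the mouse embryo first transcribes its own genome on a large scale, while it still holds RNA inherited from the egg. In whole-embryo RNA, fewer cells of a kind and less of an RNA per cell cannot be told apart.

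Total counts ran from 78865491 to 99011109 per library. No row of the table is named for SPENH0335, so its knockdown was not measured here. The 7 markers of the 2-cell embryo had counts in every library and summed to 658 and 701 CPM in control and 903 and 819 CPM in knockdown, where CPM is the count of a gene over its library's total, set to a common total, with libraries scaled by TMM, edgeR's trimmed mean of log ratios. The 7 oocyte and maternal markers summed to 5887 and 5959 CPM in control and 5431 and 5581 CPM in knockdown. Of these, 5 lay lower in both knockdown libraries than in both controls, against 17.1% of all genes tested. Among the 2-cell markers, 4 lay higher in both knockdown libraries, against 15.6% of all genes, and 1 lay lower. Of the markers of other cells, the 7 of cumulus and granulosa cells summed to 55.4 and 48.6 CPM in control and 43.5 and 61.7 CPM in knockdown. Most of that sum was Cyp19a1 (36.8 to 55.7 CPM). Has2 was at 2.65 and 2.58 CPM in control and 0.932 and 0.458 CPM in knockdown, and Foxl2 at 0.891 and 1.10 and at 0.228 and 0.0213 CPM. These 2 were the only ones of the 6 tested whose groups did not overlap. Of the 6, 3 had a fold change above 0 and 3 below. Tnfaip6, for example, was at 4.21 and 5.56 CPM in control and 5.07 and 5.05 CPM in knockdown. The 6 of sperm summed to 13.0 and 11.8 CPM in control and 16.8 and 8.20 CPM in knockdown. Of the 5 tested, 2 lay higher in both knockdown libraries and 3 lower, against 15.6% and 17.1% of all genes. The 8 of blood, oviduct and stroma summed to 34.7 and 50.6 CPM in control and 32.1 and 14.7 CPM in knockdown, with Hbb-bs and Col3a1 at 0 counts in all libraries. Of the 6 tested, 1 lay higher in both knockdown libraries and 4 lower, against the same shares of all genes. No marker of these lists was called by edgeR (smallest adjusted p 0.9999). Any part of these differences in the results below was not tested.

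The sequences upstream of 3 members are shown because these genes differed in their pattern over the libraries. Nelfb lay lower in both knockdown libraries, Supt4a was high in knockdown replicate 1 and low in replicate 2, and Ccnt2 was the reverse of Supt4a. Each line gives the 150 bases before the annotated start, 5′ to 3′ on the gene's own strand, from RefSeq on GRCm38.p6. Capitals mark matches, on either strand, to the GC box GGGCGG, the CCAAT box CCAAT, the TATA box TATAAA and the ETS core CCGGAAG.
Nelfb, minus strand, chr2:25211490-25211639: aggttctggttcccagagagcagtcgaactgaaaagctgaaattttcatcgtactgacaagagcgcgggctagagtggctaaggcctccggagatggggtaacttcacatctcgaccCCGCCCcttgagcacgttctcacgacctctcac
Supt4a, plus strand, chr11:87737401-87737550: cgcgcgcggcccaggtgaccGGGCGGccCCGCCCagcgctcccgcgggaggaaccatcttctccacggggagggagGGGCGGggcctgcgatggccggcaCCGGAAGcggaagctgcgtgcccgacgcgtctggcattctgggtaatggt
Ccnt2, plus strand, chr1:127774014-127774163: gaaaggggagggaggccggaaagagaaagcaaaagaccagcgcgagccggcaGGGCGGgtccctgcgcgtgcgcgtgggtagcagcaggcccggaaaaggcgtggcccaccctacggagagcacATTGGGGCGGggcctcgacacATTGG

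In these stretches Nelfb has 1 GC box, Supt4a has 3 with 1 ETS core, and Ccnt2 has 2 with 2 CCAAT boxes, of which 1 overlaps a GC box. Promoters of 8 of the 10 members were matched by symbol. Their starts are those of RefSeq. For Nelfa, Supt4a, Supt5, Ccnt1 and Hexim1, no GENCODE transcript of the gene began at that base. The promoter used for Ccnt1 (chr15:98567687-98567986) lies inside the bounds of the gene in GENCODE. Over the 250 bases before the start, a GC box was present in 8 of 8, against 32.7% of all 32851 promoters of the table. In the members these bases were from 50% (Nelfb) to 78.8% (Cdk9) G or C. Promoters of like GC content were not compared. A CCAAT box was present in 3 of 8 (33.8% of all promoters), an ETS core in 3 of 8 (6.91%) and a TATA box in 1 of 8 (12.4%), that of Nelfb. Such a match is a description of letters and does not show that a factor binds there.

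The comparison the design names asks which embryonic RNAs change when SPENH0335 is knocked down. No member was called higher or lower (edgeR quasi-likelihood test, Benjamini-Hochberg adjusted p under 0.05 over 25565 genes, called for 0% of genes; adjusted p 0.9999 for each member). At an unadjusted p under 0.05 there were also 0 members, against 3.85% of all genes. DESeq2 and limma-voom each called 0 of the 10 too. The log2 fold changes of the members, knockdown over control, ran from -0.73 for Nelfb to 0.16 for Ccnt1, with 4 above 0 and 6 below. Their median was -0.11, beside a median of -0.0025 over all genes tested. It was -0.43 without knockdown replicate 1 and 0.02 without knockdown replicate 2.

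**Figure D1:**
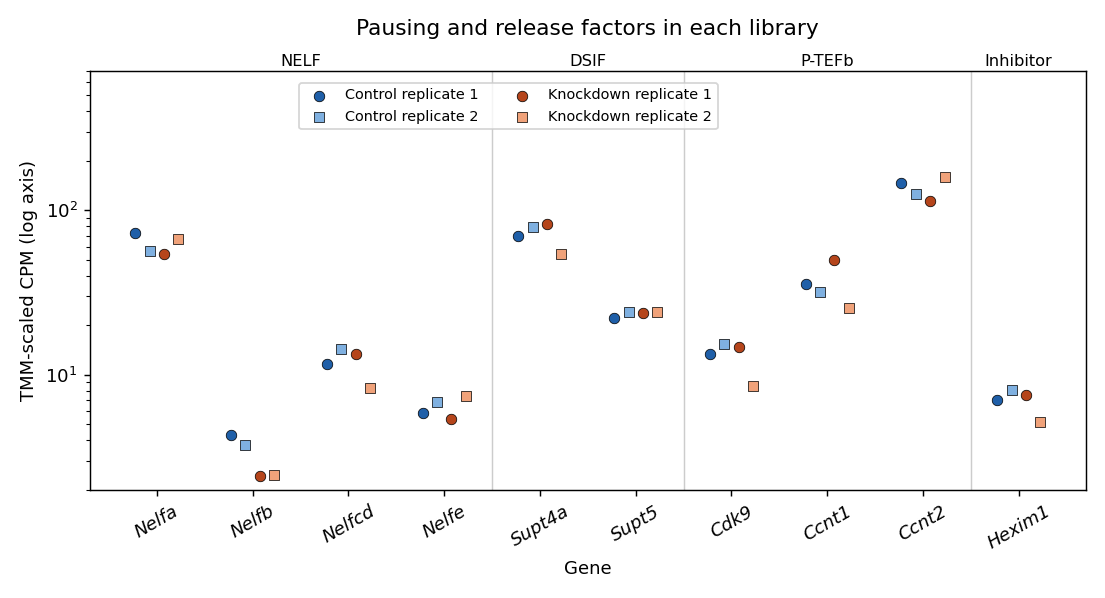
Level of each pausing and release factor in each library, in TMM-scaled CPM on a log axis, with circles for replicate 1 and squares for replicate 2. Nelfb is the only member whose knockdown libraries (2.42 and 2.45 CPM) both lie on the same side of both controls (3.77 and 4.29 CPM).

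The NELF complex has 4 subunits, and none of their genes passed the test. Nelfb encodes the subunit NELF-B, also known as COBRA1, and lies on chromosome 2 (25199712 to 25211489, GRCm38, as for all genes below). Its level was 4.29 and 3.77 CPM in control and 2.42 and 2.45 CPM in knockdown. Both knockdown libraries were thus below both controls, and the 2 knockdown values were nearly equal. The log2 fold change was -0.73 (SE 0.36, 95% interval -1.61 to 0.16, unadjusted p 0.0916, adjusted p 0.9999 by edgeR), so the difference did not pass the test. The estimate stayed between -0.82 and -0.63 with any 1 library left out. Where groups do not overlap, leaving out 1 library can hardly change the direction, so this does not set Nelfb apart. Behind it stood 380 and 303 counts in the controls and 234 and 230 after knockdown, the lowest of the members. Groups that do not overlap were found for 1 of 10 members, against 32.7% of all genes tested, 15.6% with knockdown higher and 17.1% with knockdown lower.

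Nelfa, on chromosome 5 (33897916 to 33936413), encodes a subunit that contacts the polymerase. It was at 72.4 and 56.8 CPM in control and 53.9 and 66.7 CPM in knockdown. The groups overlapped, with the highest and the second lowest level both in control, and the log2 fold change was -0.10 (95% interval -0.57 to 0.38). Without control replicate 1 it was 0.08 and without knockdown replicate 1 it was 0.05. Nelfcd, on chromosome 2 (174415804 to 174427502), encodes a subunit of the complex in 2 forms named NELF-C and NELF-D. Its levels were 11.6 and 14.3 CPM in control and 13.4 and 8.31 CPM in knockdown. Only knockdown replicate 2 lay below the controls, and the log2 fold change of -0.26 (95% interval -1.05 to 0.54) became 0.05 without that library.

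Nelfe, on chromosome 17 (34850391 to 34856372), encodes the subunit that binds RNA and through which enhancer RNAs have been reported to detach NELF. It was at 5.90 and 6.83 CPM in control and 5.36 and 7.39 CPM in knockdown. The knockdown values lay on either side of the controls and their means were 6.37 ± 1.44 CPM (SD, n = 2) beside 6.37 ± 0.662 CPM in control. Its log2 fold change was 0.0016 (95% interval -0.78 to 0.79). These values hold no direction, since the estimate was -0.24 without knockdown replicate 2 and 0.22 without knockdown replicate 1.

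DSIF is made of a small subunit, SPT4, and a large one, SPT5, which stays on the polymerase as it elongates. Supt5, on chromosome 7 (28314891 to 28338746), was the member with the most even levels. It was at 22.1 and 24.0 CPM in control and 23.8 and 24.1 CPM in knockdown. All 4 libraries lay close together, with a log2 fold change of 0.06 (95% interval -0.39 to 0.51), and -0.0033 without control replicate 1. An antisense gene, Gm44709, overlaps 7.51% of its exon bases, and without a known strand setting its reads cannot be told apart there.

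Supt4a, on chromosome 11 (87737552 to 87743623), was at 70.1 and 79.7 CPM in control and 82.3 and 54.6 CPM in knockdown. The knockdown libraries held the highest and the lowest value of the 4. The log2 fold change of -0.13 (95% interval -0.69 to 0.43) was 0.14 without knockdown replicate 2 and -0.46 without knockdown replicate 1.

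Counts of Supt4a depend on how reads were shared with Supt4b, a processed pseudogene on chromosome 10 (31413815 to 31414165). Over the 351 bases of Supt4b, which line up with the coding sequence of Supt4a without gaps, 3 bases differ, an identity of 99.1%. The first 60 bases of that alignment, taken from the GENCODE transcripts and shown because they contain 1 of the 3 differences, have the differing base in capitals.
Supt4a: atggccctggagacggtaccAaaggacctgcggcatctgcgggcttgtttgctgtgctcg
Supt4b: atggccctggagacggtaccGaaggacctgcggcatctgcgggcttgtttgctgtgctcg

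Of all 50-base words in the protein-coding transcripts of Supt4a, 27.5% also occur in Supt4b or in Gm48094, a gene antisense to it. Supt4b itself had 29 and 50 counts in control and 68 and 46 in knockdown, beside 6219 and 6401 and 7948 and 5126 for Supt4a. Reads given to the pseudogene were thus few in every library, and the sources used here do not say how the counting treated reads that match both. Among the other members, words were shared by Supt5 (9.08%, with Gm44709), Ccnt1 (8.17%, with the antisense gene 9330020H09Rik) and Nelfa (0.435%, with Nsd2), and by none of the remaining 6.

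**Figure D2:**
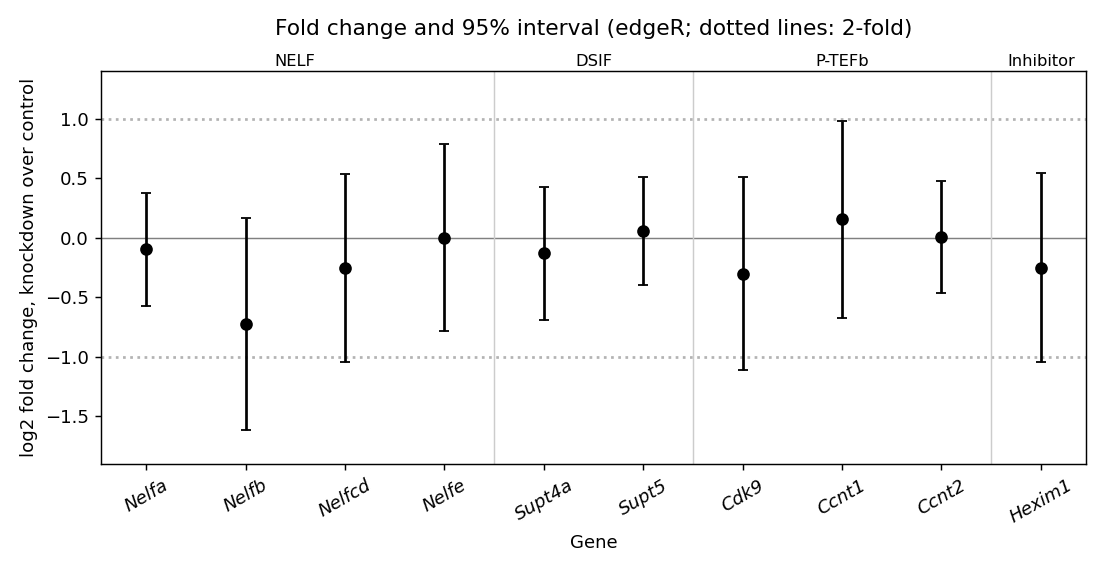
The log2 fold change of each member, knockdown over control, with its 95% interval from edgeR and dotted lines at a 2-fold change in either direction. Every interval crosses 0, and those of Nelfb, Nelfcd, Cdk9 and Hexim1 also reach beyond a 2-fold decrease.

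P-TEFb pairs the kinase CDK9 with cyclin T1 or cyclin T2, and its 3 genes varied more between the knockdown libraries than between the controls. Cdk9, on chromosome 2 (32705784 to 32713076), was at 13.4 and 15.5 CPM in control and 14.8 and 8.59 CPM in knockdown. Knockdown replicate 1 lay between the controls and replicate 2 below both. Its log2 fold change was -0.30 (95% interval -1.11 to 0.51). It was 0.05 without knockdown replicate 2 and -0.75 without knockdown replicate 1.

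Ccnt1, on chromosome 15 (98538689 to 98570923), encodes cyclin T1, and its knockdown libraries were the farthest apart of any member. It was at 35.5 and 32.1 CPM in control and 49.9 and 25.4 CPM in knockdown, so that the knockdown values enclosed the controls. The log2 fold change of 0.16 (95% interval -0.67 to 0.98) was 0.57 without knockdown replicate 2 and -0.41 without knockdown replicate 1. Ccnt2, on chromosome 1 (127774164 to 127808061), encodes cyclin T2 and was the member with the most CPM. It was at 146 and 125 CPM in control and 114 and 159 CPM in knockdown, again with the knockdown values on either side of the controls. Its log2 fold change of 0.0080 (95% interval -0.46 to 0.48) was -0.24 without knockdown replicate 2 and -0.10 without control replicate 2. Without knockdown replicate 1 it was 0.23, and without control replicate 1 it was 0.12.

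The 2 cyclins differed in opposite directions between the knockdown libraries. Per kilobase of exon, the ratio of Ccnt2 to Ccnt1 was 3.04 and 2.90 in control and 1.70 and 4.63 in knockdown. The ratio was thus nearly the same in both controls, below them in knockdown replicate 1 and above them in replicate 2. This is a description of 4 libraries with no test.

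Hexim1, on chromosome 11 (103116231 to 103119725), encodes the inhibitor that, bound to 7SK RNA, shuts off the kinase of P-TEFb. It was at 7.003 and 8.10 CPM in control and 7.53 and 5.16 CPM in knockdown. As for Cdk9, knockdown replicate 1 lay between the controls and replicate 2 below them, and the log2 fold change of -0.25 (95% interval -1.05 to 0.55) was 0.0014 without replicate 2. Per kilobase of exon, Hexim1 was at 0.691 and 0.690 of the level of Cdk9 in control and at 0.669 and 0.793 in knockdown. Inhibitor and kinase RNA therefore kept nearly the same ratio in 3 libraries, with knockdown replicate 2 above them.

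Its paralog Hexim2, which can take the same role and lies nearby on chromosome 11 (103132429 to 103139876), was at 7.34 and 8.03 CPM in control and 9.82 and 10.6 CPM in knockdown. Both knockdown libraries lay above both controls, with a log2 fold change of 0.41 (SE 0.25, unadjusted p 0.160, adjusted p 0.9999 by edgeR), which did not pass the test. The ratio of Hexim2 to Hexim1 per kilobase of exon was 1.54 and 1.46 in control and 1.92 and 3.02 in knockdown. The ratio was higher in both knockdown libraries, and in replicate 2 both genes contributed to it.

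The knockdown replicates differed from each other more than the controls did for 7 of the 10 members, the exceptions being Nelfa, Nelfb and Supt5. A difference past 1.5-fold between them was found for 4 of 10 members, Nelfcd, Supt4a, Cdk9 and Ccnt1, against 47.6% of all genes tested. All 4 are among the 7 members that averaged 10 CPM or more, a class in which 16.8% of 8185 genes differed as much. Between the control replicates 0 of 10 members differed past 1.5-fold, against 37.3% of all genes and 3.25% of those with at least 10 CPM. For the members, the median absolute log2 difference was 0.51 for the knockdown pair and 0.21 for the control pair, beside 0.54 and 0.36 for all genes tested. For the 7 members of at least 10 CPM it was 0.59 and 0.21, beside 0.26 and 0.13 for all genes of that class.

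By direction, knockdown replicate 1 was the higher for 5 members and replicate 2 for the other 5. The log2 difference, replicate 1 minus replicate 2, was 0.97 for Ccnt1, 0.79 for Cdk9, 0.69 for Nelfcd, 0.59 for Supt4a and 0.54 for Hexim1. It was -0.48 for Ccnt2, -0.46 for Nelfe and -0.31 for Nelfa. Supt5 and Nelfb differed by only -0.02 and -0.01. NELF and P-TEFb thus each hold subunits that were higher in replicate 1 and subunits that were higher in replicate 2, and in DSIF Supt4a was higher in replicate 1 while Supt5 was almost equal.

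**Figure D3:**
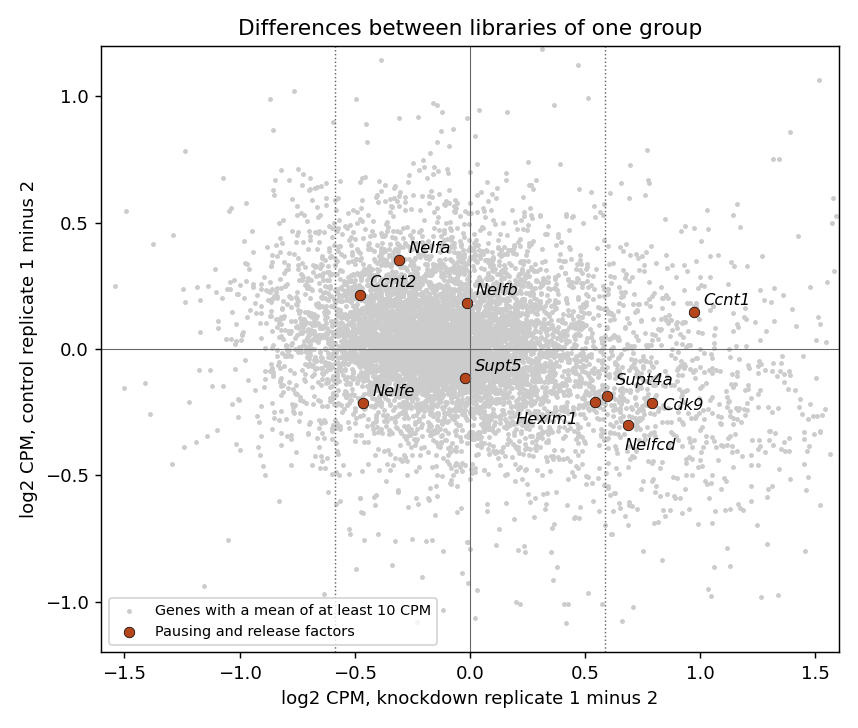
Difference in log2 CPM between knockdown replicates (horizontal, dotted lines at 1.5-fold) and between control replicates (vertical) for the members in red and for the 8185 genes averaging 10 CPM or more in grey, 69 of which lie outside the axes. Cdk9, Nelfcd, Supt4a and Hexim1 lie close together at the lower right, and Ccnt1 is farthest to the right at 0.97.

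Profiles over the 4 libraries were compared with those of the other members and of further transcription genes, 75 candidates in all, by the root-mean-square distance of centred log2 CPM. Cdk9 and Nelfcd were each other's nearest (distance 0.056), Hexim1 was nearest to Nelfcd (0.060) and Supt4a to Hexim1 (0.061). These genes thus share 1 profile, with control replicate 2 above replicate 1 and knockdown replicate 2 the lowest. The nearest to Ccnt2 was Ints12 (0.036), an Integrator subunit, the nearest to Nelfa was Rpap2 (0.077), a phosphatase of the polymerase tail, and the nearest to Nelfe was Jmjd6 (0.076). Supt5 was nearest to Tcea1 (0.065) and Ccnt1 to Aff4 (0.19), the scaffold of the super elongation complex. Nelfb was nearest to Polr2a (0.13). With 4 libraries such likeness is easily reached and is given as a description.

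To compare levels between genes, CPM was divided by the summed exon length of each gene in kilobases. Over the 4 libraries Supt4a had the highest level, 76.1 ± 13.3 CPM per kilobase (SD, n = 4), followed by Nelfa at 15.8 (13.7 to 18.3) and Ccnt2 at 11.0 (9.24 to 12.8). The ranges of these 3 did not overlap with each other or with those of the members below. Nelfcd (4.12 ± 0.914), Supt5 (4.08 ± 0.161), Ccnt1 (3.90 ± 1.13), Nelfe (3.07 ± 0.440), Cdk9 (2.84 ± 0.676) and Hexim1 (1.99 ± 0.364) formed a middle range in which each overlapped the next. Nelfb was lowest at 0.942 ± 0.275 CPM per kilobase, below the range of every other member.

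Subunits of 1 complex were therefore at unequal RNA levels per length. Supt4a was at 19.4 and 20.4 times the level of Supt5 in control and at 21.2 and 13.9 times in knockdown. Much of this comes from the division by length, with summed exons of 942 bases for Supt4a and 5764 for Supt5. Before it, they averaged 74.9 and 23.0 CPM in control. Nelfa was at 14.7 and 13.1 times the level of Nelfb in control and at 19.3 and 23.7 times in knockdown, higher in both knockdown libraries. RNA levels do not give the amounts of protein, and exon lengths count all annotated exons, also those not used in the embryo. How the selection of polyadenylated RNA and the pre-amplification of cDNA affected levels between genes was not tested.

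The 5 further lists on transcription and the pseudogene Supt4b hold 68 tested genes, with 0 called, 2 at an unadjusted p under 0.05, and a median log2 fold change of 0.02, with 35 above 0 and 33 below. Groups did not overlap for 17 with knockdown higher and 14 with knockdown lower, 45.6% together, against 32.7% of all genes. The genes named from each list, here and below, are the 2 of smallest p, and none was called. Among the 15 genes of 7SK and of the super elongation complex, which carries P-TEFb to the polymerase, 10 had a fold change above 0, and the median was 0.07. Eaf2, a partner of the ELL elongation factors, had 94 and 44 counts in control and 0 and 3 in knockdown (unadjusted p 0.0173, adjusted p 0.9999 by edgeR). Mllt3, a reader of acylated histones in that complex, was at 531 and 540 CPM in control and 594 and 688 CPM in knockdown. Its log2 fold change was 0.26 (SE 0.10, unadjusted p 0.0501, adjusted p 0.9999 by edgeR).

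Of the 13 productive elongation factors, 9 lay above 0, with a median of 0.05. Ctr9 and Cdc73, subunits of the PAF1 complex, were at 53.8 ± 1.07 and 35.3 ± 4.26 CPM in control and at 66.8 ± 0.827 and 46.9 ± 6.45 CPM in knockdown (SD, n = 2). They had the smallest unadjusted p of the list, 0.0566 and 0.0717 (edgeR, adjusted p 0.9999 for both). In this list groups did not overlap for 4 genes with knockdown higher, these included, and for 1 with knockdown lower. Over all genes tested the shares were 15.6% and 17.1%. The 10 kinases and phosphatases of the polymerase tail had a median of -0.02, with 5 on each side. Ctdsp1, a phosphatase, was at 6.58 ± 0.821 and 9.88 ± 1.26 CPM and Cdk13, a kinase of the tail, at 31.4 ± 4.32 and 40.4 ± 2.90 CPM (SD, n = 2), in control and knockdown.

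Of the 13 polymerase II subunits, 10 lay below 0, with a median of -0.08. Polr2a, the largest subunit, was at 14.4 and 12.3 CPM in control and 9.70 and 9.56 CPM in knockdown. Like Nelfb, it lay lower in both knockdown libraries with the 2 nearly equal. Also like Nelfb, it did not pass the test (log2 fold change -0.47, SE 0.24, unadjusted p 0.0974, adjusted p 0.9999 by edgeR). Polr2g averaged 231 ± 16.2 CPM in the controls and 274 ± 33.9 CPM after knockdown (SD, n = 2). In this list 4 of 13 genes were past 1.5-fold higher in knockdown replicate 1 than in replicate 2 and 0 the other way. Over all genes tested these shares were 28.6% and 19.0%, and over genes of at least 10 CPM 9.21% and 7.54%. The genes of 7SK and of the super elongation complex had 0 and 3 of 15, and those of Integrator and termination 1 and 3 of 16.

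The Integrator complex cuts the RNA of paused polymerase and ends its transcription. The 16 genes of Integrator and termination had a median of -0.02, with 7 above 0. Ints8 averaged 34.9 ± 1.93 CPM in the controls and 47.4 ± 7.09 CPM after knockdown (log2 fold change 0.44, SE 0.18, unadjusted p 0.0499, adjusted p 0.9999 by edgeR). Ints6 was at 23.7 ± 3.34 and 33.1 ± 3.87 CPM (SD, n = 2). The last list held 23 immediate early and heat shock genes known from other cells for paused polymerase at their promoters. Their median was -0.12, with 9 above 0, 0 called and 0 at an unadjusted p under 0.05. Egr1, a transcription factor of the growth response, averaged 9.99 ± 0.716 CPM in the controls and 13.9 ± 1.18 CPM after knockdown, and Klf6 at 8.31 ± 2.20 and 5.18 ± 0.998 CPM.

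**Figure D4:**
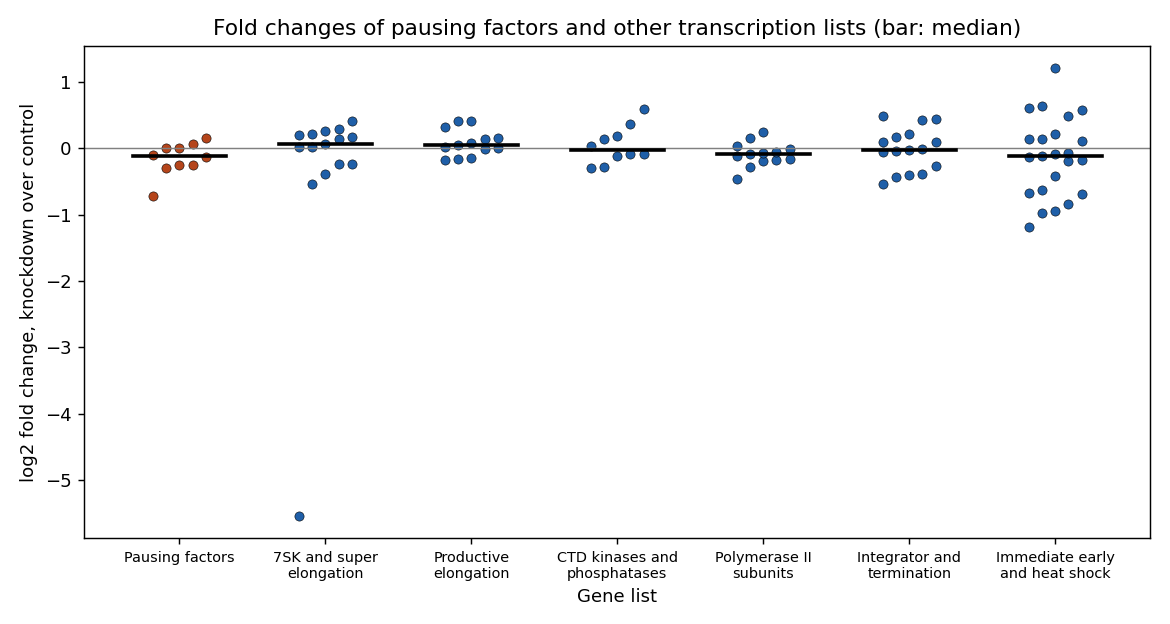
The log2 fold change, knockdown over control, of each gene in the pausing factors (red) and in 6 further lists (blue), with a bar at each list's median. The medians lie between -0.12 and 0.07, and the point at -5.54 is Eaf2, which rests on 3 counts in knockdown.

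The intervals limit what these libraries can show. Those of 6 of the 10 members, Nelfa, Nelfe, Supt4a, Supt5, Ccnt1 and Ccnt2, lay within a 2-fold change in either direction, against 31.8% of all genes tested. Among the members of at least 10 CPM they were 5 of 7, against 87.8% of all genes of that class. For Nelfb, Nelfcd, Cdk9 and Hexim1 a decrease past 2-fold was within the interval, and for none of the 10 was an increase past 2-fold.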

How the data were processed

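The authors deposited whole-number counts per gene, 1 column per library, not normalized by their values. Per the submitters' processing notes, HISAT2 2.1.0, Picard 2.18.2, Trim Galore 0.6.5, CASAVA 1.8 and mm10 were used, in roles not stated. The counting tool, annotation and strand setting are not stated in the sources used here. GENCODE release M21 (GRCm38, the assembly mm10 names) gave symbols and exon lengths for 53620 of 53715 rows. The other 95 rows, with up to 0.0164% of the counts of a library, were kept.

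The test was that of edgeR 4.0.16 (R 4.3.3): filterByExpr with a minimum of 10 counts (25565 genes), TMM scaling, and the quasi-likelihood F-test with group as its only term, two-sided. Standard errors were derived from the log2 fold change and F. Differences between replicates use log2 CPM with a prior count of 0.5. No pair of libraries was a duplicate (smallest chi-square over its degrees of freedom 30.9, between the controls). The cDNA was pre-amplified and no molecular identifiers are named. The test was checked on simulated data. Alternatives used DESeq2 1.42.0, limma-voom (limma 3.58.1), other scalings and filters, a replicate block, and each library left out.

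Named genes were all members, the paralog and the pseudogene, the 2 of smallest p in each other transcription list (none had a called gene), and each member's nearest profile. The members and lists were chosen with earlier results of these data known.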

Additional observations from a re-analysis of the deposited data

How the results depend on the processing

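No member was called under any of the 11 alternatives, and over all genes the count of 0 became 39 with DESeq2 and ran from 0 to 3 with 1 library left out. With 1 library left out, the lone sample of its group is assumed to vary like the other group. The median log2 fold change of the members then ran from -0.43 to 0.024. The same fits gave -0.26 to 0.084 for Nelfa, -0.64 to 0.053 for Nelfcd, -0.24 to 0.22 for Nelfe, -0.46 to 0.14 for Supt4a and -0.0033 to 0.11 for Supt5. They gave -0.75 to 0.046 for Cdk9, -0.41 to 0.57 for Ccnt1, -0.24 to 0.23 for Ccnt2 and -0.55 to 0.0014 for Hexim1. Nelfb kept its direction under every alternative that tested it, from -0.82 to -0.63. With groups that do not overlap, leaving out 1 library could hardly change that direction.

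Nelfe and Ccnt2, whose estimates lay near 0, changed sign to -0.012 and -0.012 with limma-voom and to -0.047 and -0.040 with library totals only. Ccnt2 was at -0.029 among genes of at least 10 CPM, a filter that left 7 members and dropped Nelfb, Nelfe and Hexim1. With the replicate block, Nelfe was at -0.013 and Ccnt2 at -0.0075, with 0 genes called and 479 at an unadjusted p under 0.05 in place of 984. The labels link control and knockdown libraries only by a replicate number, and whether they were paired is not known. Over 8185 genes the replicate differences of control and knockdown correlated at -0.21. With 4 libraries this cannot settle whether a collection was shared. The cause of these changes was not tested.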
